A study of Komagataella pastoris with 6 samples.

Results

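PAS_chr4_0627 (gene-PAS_chr4_0627 in the deposited table) is the gene of *Komagataella pastoris* whose deposited product description names a plasma membrane protein that protects membranes from drying out. It is 1 gene of 5030, chosen by its levels in the 6 libraries and the ratio between the strains as well as by that description, so its own values are given as a description without a test. The description has the wording used for Hsp12 of *Saccharomyces cerevisiae*, but the table names no symbol, and the resemblance rests on the wording alone.

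In *S. cerevisiae*, Hsp12 is a small, very hydrophilic protein that is largely unfolded in solution and becomes helical on membranes, where it is thought to keep the lipid layer stable when water is lost. Its gene is a classic target of the general stress response: the transcription factors Msn2 and Msn4 and the osmosensing Hog1 kinase pathway switch it on, the heat shock factor Hsf1 also acts on it, and protein kinase A holds it down while sugar is plentiful. Heat, salt, oxidants, ethanol and the end of growth all raise it there.

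Messenger RNA was measured in 3 libraries of strain HTX33_ILV3, which overexpresses Ilv3, and in 3 libraries of its parent HTX-33, labelled WT. Ilv3 is the dihydroxyacid dehydratase of valine, leucine and isoleucine synthesis, and the series concerns strains built to make more of these amino acids. Every culture of both strains grew in basal salt medium with 0.5% methanol, labelled as methanol induction, and was collected in exponential phase; the series design calls the replicates biological. The strains are called ILV3 and control below, and the labels do not say whether each is a single clone. The levels are TPM, the length-scaled share of a transcript in its library, although the deposited files name them FPKM: every library adds up to 1000000. Such values keep no read numbers, so the depth of each library is unknown and no counting interval can be given. The overexpressed gene, PAS_chr1-4_0458, had 2564, 2680 and 2633 TPM in the ILV3 libraries and 88.0, 79.8 and 91.9 TPM in the control libraries, as the labels call for. Between 10 and 15 genes were listed at 0 TPM in an ILV3 library and between 12 and 20 in a control library.

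PAS_chr4_0627 lay above 94.6% to 95.3% of all genes in the ILV3 libraries and was one of the most abundant transcripts of the whole cell in the control. Its level was 818, 683 and 780 TPM in ILV3 replicates 1, 2 and 3, and 13397, 14174 and 13808 TPM in control replicates 1, 2 and 3. The groups did not overlap, which held for 57.2% of all 5025 tested genes. Beside the gap between the strains, the 3 libraries of each strain lay close together. The mean was 761 ± 69.7 TPM in ILV3 and 13793 ± 389 TPM in control (SD, n = 3 each), which is 18.1-fold lower in ILV3 and a difference of -4.18 in log2(TPM + 1), ILV3 minus control. The highest ILV3 library was 16.4-fold below the lowest control library, and the lowest ILV3 library was 20.7-fold below the highest control library. In these bulk cultures, fewer cells with the transcript and less transcript per cell cannot be told apart.

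**Figure D1:**
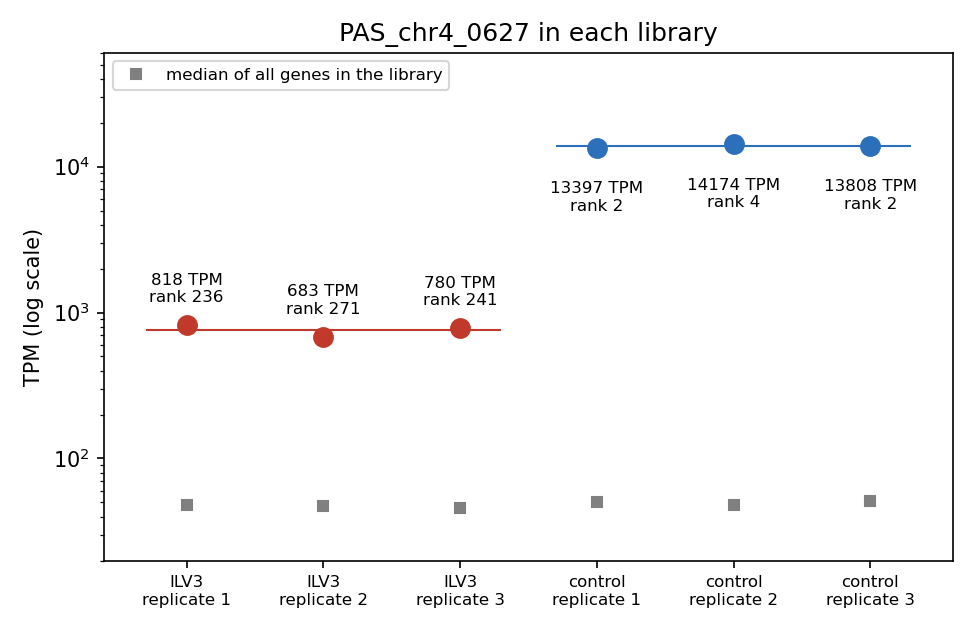
PAS_chr4_0627 in each of the 6 libraries, ILV3 left and control right, as TPM on a log axis with the rank among 5030 genes printed at each point (points are libraries, horizontal lines the strain means, grey squares the median gene of the library). The ILV3 libraries sit between 683 and 818 TPM at ranks 236 to 271, and the control libraries between 13397 and 14174 TPM at ranks 2 to 4.

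The rank in each library shows the same distance. The gene stood at ranks 236, 271 and 241 in ILV3 replicates 1, 2 and 3, and at ranks 2, 4 and 2 in control replicates 1, 2 and 3. It took 0.0818%, 0.0683% and 0.0780% of the transcript total in the ILV3 libraries, against 1.34%, 1.42% and 1.38% in the control libraries. Even in ILV3 it was no rare message: it lay 14.3 to 17.1 times above the median gene of the ILV3 libraries, while in the control libraries it lay 265 to 296 times above the median gene. AOX1 (PAS_chr4_0821), the alcohol oxidase that takes the first step of methanol use, was the top transcript of every library. PAS_chr4_0627 reached 2.10% to 2.81% of the AOX1 level in the ILV3 libraries and 60.6% to 67.9% of it in the control libraries.

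Its neighbours in abundance were of different kinds in the 2 strains. In ILV3 replicate 1 it stood below PAS_chr1-1_0484 (832 TPM), which has no product name, and above PAS_chr3_0576 (785 TPM), the alpha subunit of the mitochondrial ATP synthase. In ILV3 replicate 2 the gene above was PAS_chr3_0361 (685 TPM), a nicotinamidase of NAD salvage, and the gene below was PAS_c131_0021 (680 TPM), a subunit of the vacuolar proton pump. In ILV3 replicate 3 it lay between the ribosomal protein S4 gene PAS_chr4_0246 (785.9 TPM) and PAS_chr4_0847 (772 TPM), a glycogenin-like initiator of glycogen synthesis. The genes next to it in the ILV3 libraries were thus of mixed kinds, and the ranges of 52 other genes overlapped its own in that strain.

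In the control strain only 2 other genes overlapped its range. They were the unnamed PAS_chr4_0407, with 21278 ± 356.2 TPM in ILV3 and 13367 ± 1294 TPM in control, and a histone H4 gene, PAS_chr2-2_0200, with 14060 ± 1776 TPM in ILV3 and 13346 ± 1923 TPM in control (SD, n = 3 each). These 2 genes and AOX1 were the only ones above PAS_chr4_0627 in any control library. Formate dehydrogenase (PAS_chr3_0932), the last enzyme of the route that burns methanol to carbon dioxide, came directly below it in control replicate 2 with 11755 TPM. In abundance, PAS_chr4_0627 thus stood between AOX1 and formate dehydrogenase in the control cultures.

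The spread between libraries was uneven. The coefficient of variation of PAS_chr4_0627 was 9.16% in ILV3 and 2.82% in control. Among the 1434 genes whose mean reached 100 TPM, the median coefficient was 3.47% in ILV3 and 3.90% in control, so the gene was more variable than most in ILV3 and less variable than most in control. In ILV3, 114 of these genes varied more, and in control 971 did. Paired by replicate number, the ILV3 library was 16.4, 20.7 and 17.7 times below the control library for numbers 1, 2 and 3; the widest gap comes from number 2, which has the lowest ILV3 and the highest control value.

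Among all genes, PAS_chr4_0627 had the 3rd lowest difference of mean log2(TPM + 1), ILV3 minus control, of the 5025 genes whose mean reached 1 TPM. By the plain ratio of mean TPM it was 4th lowest, and 2 of the 3 genes below it there were listed at 0 in every ILV3 library and above 0 in a single control library. The median of all genes was -0.02 on the log2(TPM + 1) scale, and 95% of them lay between -0.97 and 0.71. There were 18 genes below -2 and 8 above 2, and of all tested genes 2.29% passed the limma test at least 2-fold lower and 0.816% at least 2-fold higher. By absolute difference the gene was 4th, since ILV3 itself, at 4.91, also lay farther from 0. In the authors' deposited table its log2 fold change is -4.07, the 2nd lowest of 5030.

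**Figure D2:**
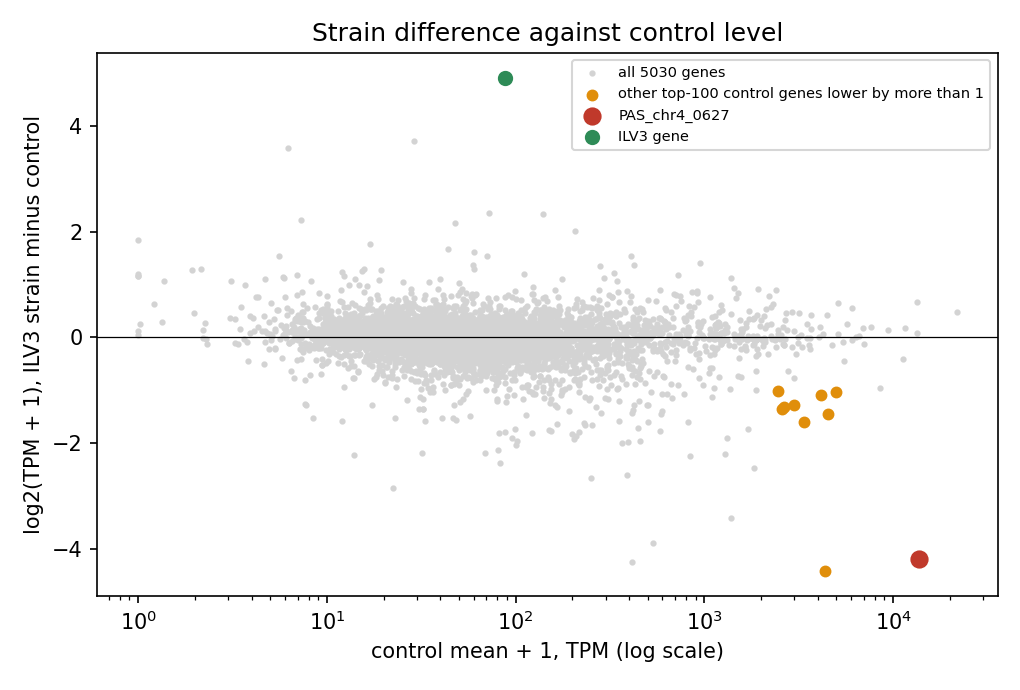
Difference between the strains (log2(TPM + 1), ILV3 minus control) against the mean level in control (TPM + 1, log axis), 1 grey point for each of 5030 genes; orange points are the other 9 of the 100 most abundant control genes that were lower by more than 1. PAS_chr4_0627 is the red point at the lower right, at -4.18 and 13793 TPM, with PAS_chr2-2_0208 the nearest orange point, and the ILV3 gene is the green point at 4.91.

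The genes around it in that order were mostly without product names, as are 2197 of all 5030 genes, and all were at lower levels. The lowest difference belonged to PAS_chr2-2_0208, with 204, 186 and 219 TPM in the ILV3 libraries and 4498, 4137 and 4385 TPM in the control libraries, a difference of -4.41. The next, PAS_chr1-4_0369, had 88.3, 0 and 94.8 TPM in the ILV3 libraries and 257, 594 and 380 TPM in the control libraries. Its mean TPM was 6.72-fold lower in ILV3, less than the 18.1-fold of PAS_chr4_0627. Its libraries spread widely, and PAS_chr4_0627 became 2nd when ILV3 replicate 2 or control replicate 2 was left out, and with a pseudocount of 5. Below PAS_chr4_0627 in the order came PAS_chr3_0337 at -3.89, PAS_chr2-1_0192 at -3.41, PAS_chr1-4_0582 at -2.85, the Flo1-like cell wall lectin PAS_chr1-4_0584 at -2.66 and PAS_chr3_0015 at -2.59. They averaged between 2.14 and 128 TPM in ILV3 and between 21.4 and 1376 TPM in control.

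What set PAS_chr4_0627 apart from them was its size. It lost 13033 TPM in ILV3 relative to control, more than any other gene. Over all genes, 2672 were lower in ILV3 and together lost 120993 TPM, and PAS_chr4_0627 alone made up 10.8% of that. The next, PAS_chr2-2_0208, lost 4137 TPM, or 3.42%. Because TPM shares a fixed total, the lower share of this single gene raises all the others by 1.32%, or 0.02 on the log2 scale. The largest gains were AOX1 with 8533 TPM, PAS_chr4_0407 with 7912 TPM and, after the unnamed PAS_chr4_0589 with 2951 TPM, an Hsp70-type folding ATPase (PAS_chr3_0230) with 2905 TPM and ILV3 with 2539 TPM.

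No other gene as abundant in control had a difference of that size. Of the 20 most abundant transcripts of the control, the other 19 differed by -0.96 to 0.67 on the log2 scale, with 13 higher and 6 lower in ILV3 and a median of 0.08, and the lowest rank among them by mean in ILV3 was 28. Of the 100 most abundant, 10 were lower by more than 2-fold, PAS_chr4_0627 included. Choosing genes by their control level takes in those high in control alone and leaves out those high in ILV3 alone, so these counts do not compare the directions. The other 9 ranged from -4.41 for PAS_chr2-2_0208 to -1.01. The only 2 with product names were AHP1 (PAS_chr2-1_0502), a peroxiredoxin, at -1.03, and a cytoplasmic peptidyl-prolyl isomerase (PAS_chr1-3_0264), which helps proteins fold, at -1.31. Over all 5030 genes, 2833 have product names.

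The 10 genes whose profile over the 6 libraries was closest to that of PAS_chr4_0627 were found by the root mean square difference of log2(TPM + 1), each gene centred on its own mean, among 4772 other genes whose mean reached 10 TPM. The closest were PAS_chr2-2_0208 at 0.14, PAS_chr3_0337 at 0.18 and PAS_chr2-1_0192 at 0.40, and the 10th was PAS_chr3_1068 at 1.00. Only 2 of the 10 have product names, beside 2833 of all 5030 genes. The 2 are the lectin PAS_chr1-4_0584 and PAS_chr4_0828, a transporter of myo-inositol, the sugar alcohol of membrane phosphoinositides. PAS_chr4_0828 had 331 ± 20.5 TPM in ILV3 and 1841 ± 32.7 TPM in control (SD, n = 3 each).

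The choice of these genes rests on the step between the strains, which far exceeds the differences between cultures of a strain. PAS_chr4_0627 departed from its strain mean by 0.11, -0.15 and 0.04 on the log2 scale in ILV3 replicates 1, 2 and 3 and by -0.04, 0.04 and 0.00 in control replicates 1, 2 and 3. In those libraries 6, 5, 4, 4, 2 and 8 of the 10 genes departed in the same direction, beside 55.9%, 39.0%, 33.2%, 33.5%, 23.6% and 71.8% of all genes, so the counts lay near those of genes at large. The closest gene, PAS_chr2-2_0208, was lowest in control replicate 2, the library in which PAS_chr4_0627 was highest.

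**Figure D3:**
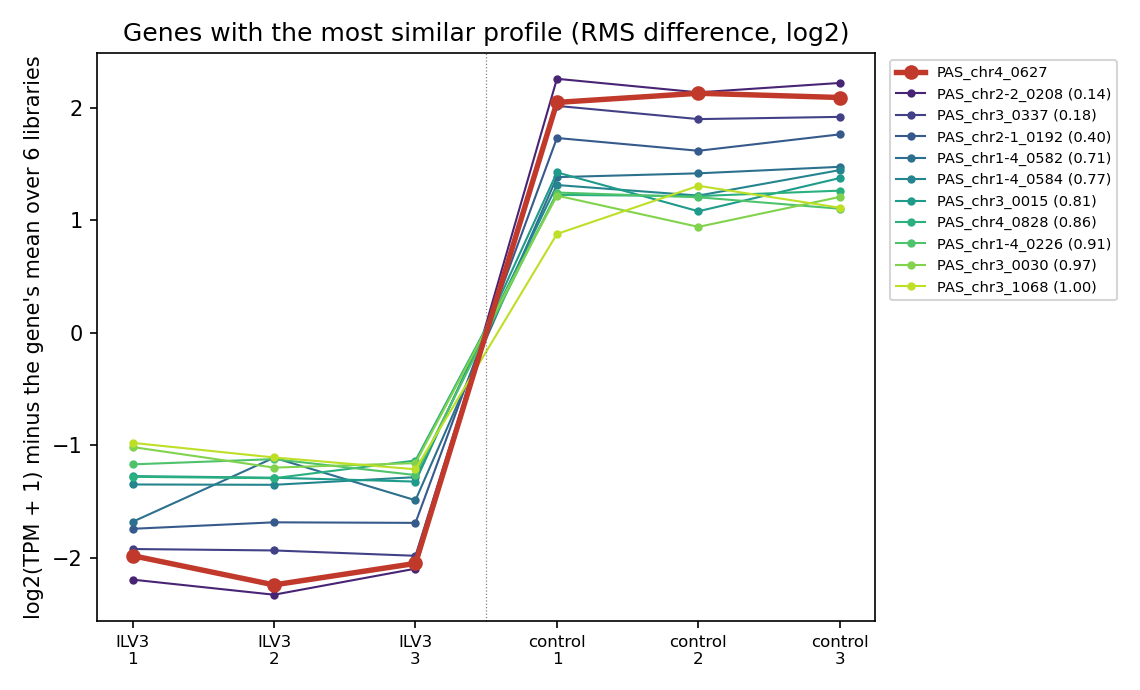
Log2(TPM + 1) of PAS_chr4_0627 and the 10 genes closest to it in each library, each gene centred on its mean over the 6 libraries; lines only join values of the same gene. PAS_chr4_0627 and its 2 closest genes run almost together, and the 10th gene takes a smaller step.

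The step was not shared along the chromosome. Of the 5 locus numbers before PAS_chr4_0627 and the 5 after it, 3 rose, 3 fell and 4 did not pass the test (limma, Benjamini-Hochberg adjusted p under 0.05; over all 5025 genes 49.3% passed, 22.1% rose and 27.2% fell). Directly before it, PAS_chr4_0626, an activator of genes under nitrogen catabolite repression, had 10.1, 10.01 and 9.32 TPM in the ILV3 libraries and 16.8, 16.6 and 18.3 TPM in the control libraries. It fell by 0.75 ± 0.08 on the log2 scale (SE; limma adjusted p = 6.57e-05). Directly after it, the unnamed PAS_chr4_0628 had 80.3 ± 1.31 TPM in ILV3 and 95.4 ± 8.88 TPM in control (SD, n = 3 each), with a log2 difference of -0.24 (limma adjusted p = 0.0154), a call that was lost without control replicate 1 (0.0560) or 3 (0.0519). The other neighbours lay between -0.43 for PAS_chr4_0631 and 0.99 for PAS_chr4_0625, a weakly expressed gene with 6.29 ± 0.569 TPM in ILV3 and 2.66 ± 0.160 TPM in control (SD, n = 3 each). PAS_chr4_0623, which encodes alpha-tubulin, had 205 TPM in ILV3 and 202 TPM in control, a difference of 0.03 (limma adjusted p = 0.659).

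**Figure D4:**
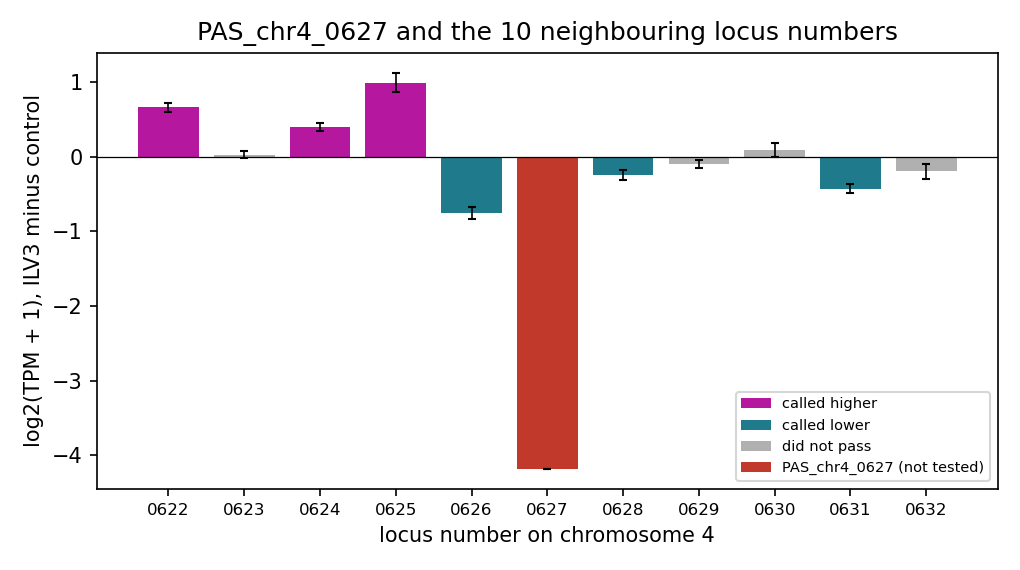
Log2(TPM + 1) difference, ILV3 minus control, of PAS_chr4_0627 (red, not tested) and of the 5 locus numbers on each side; bars are differences, error lines the standard errors from limma, magenta and teal mark genes called higher and lower, and grey those that did not pass. The neighbours lie between -0.75 and 0.99, and PAS_chr4_0627 at -4.18.

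Genes of protein kinase A and stress signalling, among them some that in *S. cerevisiae* act on Hsp12, were compared through product descriptions. The descriptions matched 18 genes. Of these, 1 rose, 9 fell and 8 did not pass the test (limma, as above), with a median log2 difference of -0.16 against -0.02 for all genes. Over all genes tested, 22.1% rose and 27.2% fell. HSF1 (PAS_chr2-1_0026), the heat shock transcription factor, had 31.1, 27.5 and 26.2 TPM in the ILV3 libraries and 45.8, 41.9 and 45.9 TPM in the control libraries. It fell by 0.64 ± 0.07 on the log2 scale (SE; limma adjusted p = 0.000119). PBS2 (PAS_chr1-1_0105), the kinase just above Hog1, fell by 0.54 ± 0.05 (limma adjusted p = 3.14e-05), to 90.6 ± 3.07 TPM in ILV3 against 132 ± 5.84 TPM in control (SD, n = 3 each). The adaptor STE50 (PAS_chr1-1_0348) fell by 0.60 and the osmosensor SLN1 (PAS_chr4_0315) fell by 0.55 (limma adjusted p = 3.46e-05 for STE50 and 0.00109 for SLN1). A second gene with the SLN1 description, added after its values were seen, did not pass the test (limma adjusted p = 0.097). It had 40.6 ± 2.89 TPM in ILV3 and 45.1 ± 2.08 TPM in control (SD, n = 3 each).

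All of these steps were small beside that of PAS_chr4_0627, and 2 of the 3 protein kinase A subunit genes lost their calls under some settings. The catalytic subunit gene PAS_chr3_0964, the only one of the 18 that rose, had 59.5 ± 0.762 TPM in ILV3 and 51.7 ± 2.65 TPM in control (SD, n = 3 each), a difference of 0.20 (limma adjusted p = 0.0124). The other catalytic subunit gene, PAS_chr1-4_0357, fell by 0.17 (limma adjusted p = 0.0207), and the regulatory subunit BCY1 (PAS_chr3_0546) fell by 0.12 (limma adjusted p = 0.0428, but 0.122 with replicate number as a blocking term and 0.485 with quantile normalization). The call of PAS_chr1-4_0357 was lost without ILV3 replicate 2 (limma adjusted p = 0.0648), control replicate 1 (0.0751) or control replicate 3 (0.0795) and with quantile normalization (0.0699). These 3 were named after their values were seen. The count of 9 lower genes became 5 without control replicate 1 or without control replicate 3, and 6 with replicate number as a blocking term. No description matched HOG1, MSN2 or MSN4, which were not analysed here.

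Trehalose and glycerol are the small molecules with which yeast cells meet drying and salt, and most of their matched genes were lower in ILV3. Of 11 genes, 8 fell, 2 rose and 1 did not pass the test (limma, as above; 27.2% of all genes fell and 22.1% rose), with a median of -0.55 against -0.02 for all genes. ATH1 (PAS_chr4_0342), the acid trehalase that uses trehalose from outside, had 67.2, 69.0 and 66.3 TPM in the ILV3 libraries and 154, 144 and 160 TPM in the control libraries, and fell by 1.16 ± 0.05 (SE; limma adjusted p = 2.95e-07). A regulatory subunit of the trehalose synthesis complex (PAS_chr2-1_0739) fell by 1.12 (limma adjusted p = 3.56e-07), to 106 ± 2.67 TPM in ILV3 against 232 ± 12.7 TPM in control (SD, n = 3 each). A gene of trehalose synthesis and a gene of its use thus both fell.

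Glycerol genes differed among themselves. Of those described as the glycerol importer of the plasma membrane, PAS_chr3_1076 fell by 1.00 (limma adjusted p = 2.62e-06) and PAS_chr3_1099 fell to 41.1 ± 1.06 TPM in ILV3 against 77.5 ± 3.12 TPM in control (SD, n = 3 each). A gene with the same description, PAS_chr4_0571, rose by 0.20 (limma adjusted p = 0.00769). Another, PAS_chr1-1_0028, had 32.95 TPM in ILV3 and 30.79 TPM in control. It did not pass the test (limma adjusted p = 0.16), though it did with quantile normalization (0.0319). GPD1 (PAS_chr2-2_0111), the key enzyme of glycerol synthesis, rose by 0.74 ± 0.04 (SE; limma adjusted p = 8.63e-07), with 230, 232 and 233 TPM in the ILV3 libraries and 137, 135 and 141 TPM in the control libraries. GPD1 and PAS_chr4_0571, the 2 that rose, and PAS_chr1-1_0028 were named after their values were seen.

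Heat shock chaperones, the proteins with which Hsp12 is grouped by name, mostly moved the other way from PAS_chr4_0627. Of 14 matched chaperones and co-chaperones, 12 rose, 1 fell and 1 did not pass the test (limma, as above), with a median of 0.54. Over all genes tested, 22.1% rose and 27.2% fell. No gene was matched as HSP26 or HSP42. HSP104 (PAS_chr1-3_0102), the disaggregase that rescues clumped proteins, had 3399, 3840 and 3616 TPM in the ILV3 libraries and 1826, 2036 and 1907 TPM in the control libraries. It rose by 0.91 ± 0.06 (SE; limma adjusted p = 2.93e-06). FES1 (PAS_chr2-1_0042), a nucleotide exchange factor of Hsp70, rose by 0.90, AHA1 (PAS_chr3_0170), which activates Hsp90, by 0.78 and HSP78 (PAS_chr2-1_0324), a mitochondrial disaggregase, by 0.69, with limma adjusted p-values of 2.03e-06, 3.40e-06 and 1.32e-05.

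The order of the gene among the chaperones also differed between the strains. All 14 chaperones lay below PAS_chr4_0627 in control, while 9 of the 14 lay above it in ILV3. Its transcript equalled 2.97% ± 0.390 of the summed chaperone level in ILV3 and 81.0% ± 1.46 in control (SD, n = 3 each). HSP104 was 4.80 ± 0.748 times as abundant as PAS_chr4_0627 in ILV3 and 0.139 ± 0.00383 times in control. The 1 chaperone that fell, a weakly expressed gene with an Ssc1-like description (PAS_chr3_0402, named after its values were seen), had 27.6 ± 1.09 TPM in ILV3 and 32.1 ± 1.24 TPM in control (SD, n = 3 each; limma adjusted p = 0.0163). This call was lost with replicate number as a blocking term (limma adjusted p = 0.0566), and without ILV3 replicate 1 or 3 or control replicate 1 or 3.

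Genes of peroxide and superoxide defence, another arm of the stress response, fell and rose. Of 20 matched genes, 7 rose, 11 fell and 2 did not pass the test (limma, as above; 22.1% of all genes rose and 27.2% fell), with a median of -0.20 against -0.02 for all genes. AHP1 (PAS_chr2-1_0502), a thiol peroxiredoxin, had 2458, 2389 and 2455 TPM in the ILV3 libraries and 4997, 5007 and 4925 TPM in the control libraries, and fell by 1.03 ± 0.04 (SE; limma adjusted p = 9.73e-08). The mitochondrial superoxide dismutase SOD2 (PAS_chr1-4_0071) fell by 0.74. TSA1 (PAS_chr2-2_0220), a peroxiredoxin of the cytoplasm, rose by 0.76 and PRX1 (PAS_chr1-1_0433), of mitochondria, rose by 0.75, with limma adjusted p-values of 8.63e-07 for SOD2, 2.50e-06 for TSA1 and 1.61e-05 for PRX1. A second gene with the mitochondrial description, PAS_chr3_0906, fell by 0.45 (limma adjusted p = 8.75e-05), and so did the thiol peroxidases DOT5 (PAS_chr1-1_0155) and HYR1 (PAS_chr2-2_0382), with differences of -0.44 and -0.39. These 3 were named after their values were seen, and peroxidase genes thus moved both ways.

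A fixed list of proteins of the plasma membrane and its eisosomes, the furrows that hold and protect membrane proteins, matched 4 genes by description. The glycerol importers above, also described as of the plasma membrane, were counted with glycerol and not here. FMP45 (PAS_chr3_0287), an integral eisosome protein that in *S. cerevisiae* is needed for sporulation, had 967, 910 and 952 TPM in the ILV3 libraries and 1767, 1952 and 1888 TPM in the control libraries. It fell by 0.99 ± 0.05 (SE; limma adjusted p = 5.42e-07). The proton pump PMA1 (PAS_chr1-1_0002) fell by 0.24 (limma adjusted p = 0.0154, but 0.0514 without control replicate 1 and 0.0520 without control replicate 3), and the kinase YPK1 (PAS_chr3_0127) rose by 0.19 (limma adjusted p = 0.0131, but 0.0550 without ILV3 replicate 2). SLM1 (PAS_chr1-4_0418), which acts in signalling at the plasma membrane, had 128 TPM in ILV3 and 130.9 TPM in control (limma adjusted p = 0.776). Of these 4, only FMP45 came near a 2-fold difference, against 18.1-fold for PAS_chr4_0627.

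Cytosolic ribosomal proteins, which in *S. cerevisiae* move against the general stress response when growth slows, stayed close to the middle of all genes. Of 84 genes, 4 rose, 24 fell and 56 did not pass the test (limma, as above; 22.1% of all genes rose and 27.2% fell), with a median of -0.04 and a range of -0.33 to 0.45. Among the lower genes, L9 (PAS_chr1-1_0382) differed by -0.33 (limma adjusted p = 0.0389, a call lost in 8 of the other settings), L33 (PAS_chr1-4_0275) by -0.32 (0.0103) and S0 (PAS_chr1-4_0471) by -0.28 (0.00185). A second L9 gene, added after its values were seen, did not pass the test (limma adjusted p = 0.625). It had 836 ± 10.1 TPM in ILV3 and 822 ± 9.74 TPM in control (SD, n = 3 each). The genes that rose were those of S29, S14, S12 and L28 (PAS_chr2-1_0728), of which the last 3 were named after their values were seen. The call of L28 was lost without ILV3 replicate 3 (limma adjusted p = 0.0579) or control replicate 1 (0.0593) or 3 (0.0561). The one farthest from 0 was that of S29 (PAS_chr1-4_0504), with 4332 ± 210 TPM in ILV3 and 3173 ± 366 TPM in control (SD, n = 3 each; limma adjusted p = 0.00155). The count of 24 moved to between 14 and 15 when ILV3 replicate 2 or 3 or control replicate 1 or 3 was left out, and to 13 with median-ratio scaling.

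**Figure D5:**
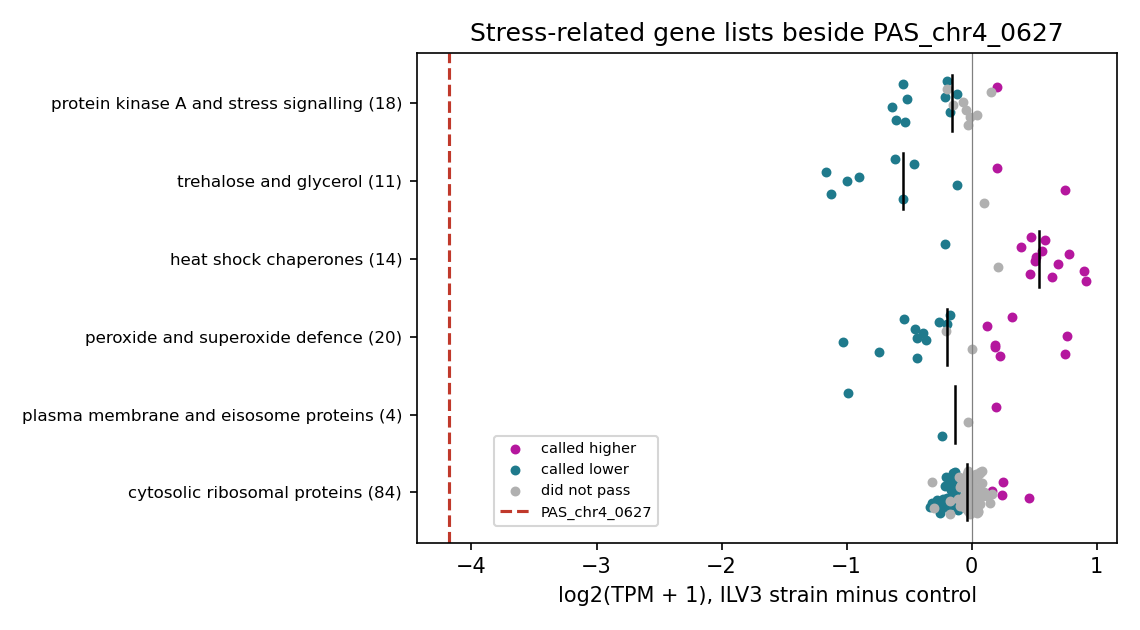
Log2(TPM + 1) differences, ILV3 minus control, of the members of each gene list, with PAS_chr4_0627 beside them as a dashed red line (points are genes, coloured magenta where called higher, teal where called lower and grey where the limma test was not passed; black marks are list medians). The list medians run from -0.55 for trehalose and glycerol to 0.54 for chaperones, and no member comes near -4.18.

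A search of all product descriptions for desiccation, heat shock, osmotic, stationary phase or stress found 15 genes apart from PAS_chr4_0627, some of them also in the lists above. Of these, 7 fell, 6 rose and 2 did not pass the test (limma, as above; 27.2% of all genes fell and 22.1% rose), with a median of 0.02 against -0.02 for all genes. The lowest was PAS_chr4_0037, a kinase of the oxidative and osmotic stress response, with 140, 134 and 126.5 TPM in the ILV3 libraries and 297, 290 and 307 TPM in the control libraries. It fell by 1.15 ± 0.05 (SE; limma adjusted p = 2.21e-07). A second gene with the same description, PAS_chr2-2_0332, rose by 0.36 (limma adjusted p = 0.000509). PAS_chr1-4_0393, of a family induced in stationary phase, rose by 0.43, with 71.5 ± 10.3 TPM in ILV3 and 52.7 ± 4.42 TPM in control (SD, n = 3 each; limma adjusted p = 0.00659). Genes with stress in their description thus went both ways, and the lowest of them differed by -1.15 against -4.18 for PAS_chr4_0627.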

How the data were processed

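A stranded, ligation-based mRNA kit was used, per the labels' protocols. HISAT2, TopHat2 and DESeq2 are named in the submitters' processing notes; the sources used here give no versions, order, genome build or annotation. The deposited values are named FPKM but add up to 1000000 in each library, so they were used as TPM made by the authors. The deposited table also holds a log2 fold change and a p-value per gene by the authors; the fold change is quoted only where named, and the p-value was not used. Depth is unknown.

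Genes averaging at least 1 TPM (5025 of 5030) were tested with limma 3.58.1 (R 4.3.3) on log2(TPM + 1), 3 ILV3 against 3 control libraries, two-sided, with the trended prior; p was adjusted by Benjamini-Hochberg over all tested genes, and genes were called under 0.05. This scale understates the change of low genes. The fit was tested on simulated data.

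Genes and lists were chosen with earlier results of these data known. Named genes were PAS_chr4_0627 and ILV3, the 5 neighbours on each side by log2 difference (only 2 lie beyond it) and by locus number, those next to it in abundance, the 10 closest profiles, description matches and, per list, the 4 called genes farthest from 0 (or all, where fewer); others are marked or described as leading in level or TPM change, likewise after their values were seen. Symbols and list members follow product descriptions, so the lists are incomplete. Among those sought and not matched were HSP26 and HSP42 of the chaperones, TPS1 of trehalose synthesis, and PIL1 and LSP1 of the eisosomes. Of the 5030 gene IDs, 0 matched the RefSeq gene table at hand, so no coordinates are given.

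Same-numbered libraries deviated together from their strain means (r across genes 0.223, 0.126 and 0.209, above the limit of 0.1). This pairing comes from the data, since the labels do not state it; the fit stayed without the block, and the blocked value stands where it changes a call. The further settings tried were pseudocounts 0.1 and 5, no filter, a filter at 10 TPM, median-ratio scaling, quantile normalization, rescaling without PAS_chr4_0627 and ILV3, no trend, robust empirical Bayes and each library left out.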

Additional observations from a re-analysis of the deposited data

How the results depend on the processing

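The log2 difference of PAS_chr4_0627, -4.18, was -4.38 with quantile normalization, which also put it 1st by that difference, and ranged from -4.24 to -4.11 with single libraries left out, at places 2 to 3. With pseudocount 5, 26 genes in place of 41 were at least 2-fold higher. In stress signalling, 2 genes rose with median-ratio scaling and 3 with quantile normalization, in place of 1; 5 to 9 fell with single libraries left out. With the replicate block, 983 genes rose and 1228 fell, in place of 1113 and 1365, and 0 chaperones fell; the only calls of named genes lost with it were those of PAS_chr3_0402 (0.0566) and BCY1 (0.122), and it moved no other list count by over 1.5 times. With single libraries left out, 0 to 1 chaperones fell, and 0 to 1 genes of the plasma membrane list rose and 1 to 2 fell. In the same settings 14 to 27 ribosomal protein genes fell, against 13 with median-ratio scaling. Leaving out a library also leaves fewer samples, and the cause of these shifts was not tested. Of 974 comparisons over 61 genes (47 by the naming rule and 14 added after their values were seen), 933 kept the call or its absence, 33 lost the call, 8 gained it and 0 called differences reversed; in 10 of the 933, over 5 genes that were not called, the sign changed. The call of the L9 gene PAS_chr1-1_0382 (limma adjusted p = 0.0389) was lost in 8 settings, at 0.0531 to 0.137. Quantile normalization gave 1499 higher and 1274 lower genes. No setting moved the median of all genes by 0.1 on the log2 scale. Unknown depth leaves the precision of single values, and of genes listed at 0, without a counting limit.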
